A study of Mus musculus with 6 samples.

Results

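NF-kB is a family of transcription factors that is held in the cytoplasm by inhibitor proteins and released when a receptor signals. The 10 genes described here are the factor subunits Nfkb1, Nfkb2, Rela and Relb, the inhibitors Nfkbia and Tnfaip3, the atypical IkB proteins Nfkbiz and Bcl3, the ubiquitin ligase Birc3 and the TWEAK receptor Tnfrsf12a. They were chosen by name from the gene table, were all found, and are 10 of its 55995 features. RNA was sequenced from the gastrocnemius, a calf muscle of mostly fast-twitch fibres, in 3 radiotherapy libraries and 3 control libraries. All mice were of the NOD/SCID/IL2Rγ-null (NSG) strain, which lacks mature lymphocytes and keeps myeloid cells such as neutrophils and macrophages. All carried, under the skin of the left flank, a xenograft of wild-type MDA-MB-231 cells, an established line from human breast cancer. In the radiotherapy group the beam was aimed at the tumour, when its volume had reached about 800 mm3. It received 10 Gy in 1 fraction (6 MV X-rays, delivered at 6 Gy/min), and the contralateral muscle was collected after 3 days. Control mice received no irradiation, and the labels give them no tumour size or day of collection, so a difference in either cannot be told apart from irradiation. The age and sex of the mice are not given. Whether each library came from its own mouse is not stated, so p-values reflect only the spread among these libraries, part or all of which may be technical. The question the design poses is how muscle outside the beam differs after the tumour is irradiated.

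In the canonical pathway an IkB kinase complex marks the inhibitor IkB-alpha, the product of Nfkbia, for degradation, and dimers such as RelA with p50 (from Nfkb1) enter the nucleus. In the non-canonical pathway the kinase NIK, the product of Map3k14, leads to processing of the Nfkb2 product, which pairs with RelB. Many members are themselves NF-kB targets, so that their transcripts are often read as a record of the pathway's activity. In skeletal muscle, TWEAK and its receptor are known as activators of NF-kB, and both the receptor and the pathway have been tied to muscle wasting and to regeneration after injury.

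The values are TPM, transcript levels scaled by length and library, with the same total in every library. Read depth is unknown, so the precision of a value rests on the spread of 3 libraries. The tissue label fits its markers: the summed level of 6 muscle fibre genes was 61163 to 93093 TPM in radiotherapy and 68039 to 75457 TPM in control muscle. Radiotherapy replicate 3 stood apart from replicates 1 and 2. Over 11938 tested genes its log2 levels correlated with theirs at 0.850 and 0.851, while replicates 1 and 2 correlated at 0.968 and the control libraries at 0.938 to 0.950. The tests below are therefore given with and without radiotherapy replicate 3, a choice made with the values known.

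Of the 10 members, 9 showed a split within the radiotherapy group. Radiotherapy replicate 3 held the highest level of all 6 libraries for all but Tnfrsf12a, as in 30% of all tested genes, and radiotherapy replicates 1 and 2 lay below every control library for all but Relb. Both were true of 8 members, a pattern found in 19.3% of all tested genes. Radiotherapy replicates 1 and 2 were below every control in 9 of 10 members, beside 58.8% of all tested genes, and replicate 3 was above every control in 9 of 10, beside 31.5%. The TWEAK receptor was the exception, with all 3 radiotherapy libraries below all 3 controls. That order was found in 1 of 10 members, beside 19.3% of all tested genes.

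**Figure D1:**
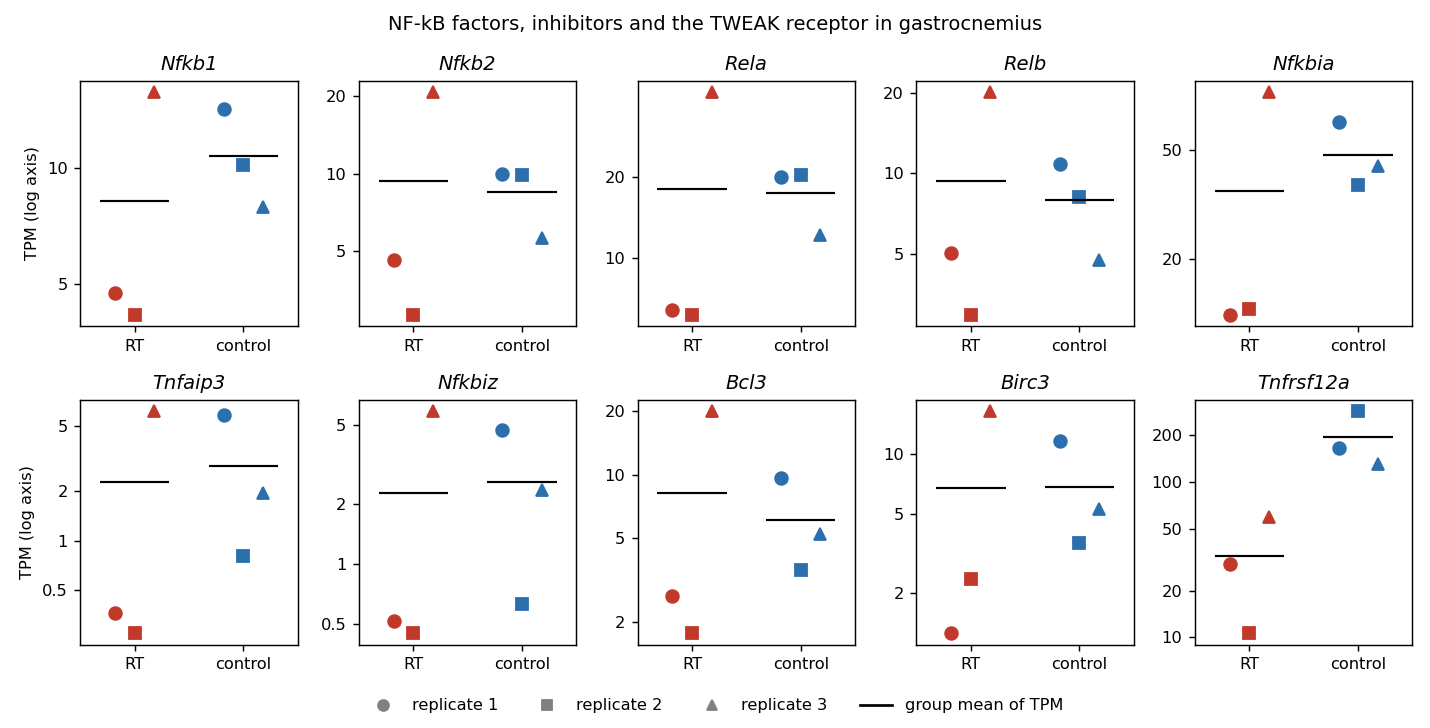
TPM of each member on a log axis (scaled separately per panel) in the 3 radiotherapy (RT, red) and 3 control (blue) libraries, with replicates as marker shapes and the group mean as a line. Replicate 3 of RT is the highest point in 9 panels, and in the Tnfrsf12a panel its 59.6 TPM is below the lowest control, 131 TPM.

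Because many of these genes carry NF-kB sites in their own control regions, promoter windows from 250 bases before to 50 bases after the start were searched for the kappaB consensus on both strands. The consensus was GGGRNNYYCC, with R for A or G, Y for C or T and N for any base. RefSeq windows on GRCm38.p6 were matched for 7 members, Bcl3, Birc3, Nfkb2, Nfkbia, Rela, Tnfaip3 and Tnfrsf12a, 10 windows in all. A match was found in 4 of these 7 genes, Nfkbia, Nfkb2, Tnfaip3 and Bcl3, and in 6 of the 10 windows. Several of these windows belong to Nfkb2. Those starting at chr19:46305445 and chr19:46305680 overlap and share a match, so the windows are not separate observations. Over all genes the window held a match in 9.55% of 27025 genes and in 8.46% of 32851 windows. The windows of Birc3, Rela and Tnfrsf12a had no match, which says only that these letters are not there. A window of each of the 4 genes with a match, and that of Tnfrsf12a, the member whose groups did not overlap, are shown 5′ to 3′ on the gene's strand, with matches to the consensus in capitals.
Nfkbia (chr12:55492598-55492897, minus strand): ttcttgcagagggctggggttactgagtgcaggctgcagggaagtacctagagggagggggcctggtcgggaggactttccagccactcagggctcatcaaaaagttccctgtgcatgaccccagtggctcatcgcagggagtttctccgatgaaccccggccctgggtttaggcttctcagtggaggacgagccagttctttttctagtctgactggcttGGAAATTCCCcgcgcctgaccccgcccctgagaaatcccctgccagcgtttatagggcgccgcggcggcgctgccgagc
Nfkb2 (chr19:46304487-46304786, plus strand): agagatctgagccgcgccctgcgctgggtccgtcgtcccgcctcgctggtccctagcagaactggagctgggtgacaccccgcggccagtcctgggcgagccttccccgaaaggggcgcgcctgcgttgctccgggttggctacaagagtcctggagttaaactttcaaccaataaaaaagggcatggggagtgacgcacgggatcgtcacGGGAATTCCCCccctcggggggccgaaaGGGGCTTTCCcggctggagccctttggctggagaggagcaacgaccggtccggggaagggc
Tnfaip3 (chr10:19015361-19015660, minus strand): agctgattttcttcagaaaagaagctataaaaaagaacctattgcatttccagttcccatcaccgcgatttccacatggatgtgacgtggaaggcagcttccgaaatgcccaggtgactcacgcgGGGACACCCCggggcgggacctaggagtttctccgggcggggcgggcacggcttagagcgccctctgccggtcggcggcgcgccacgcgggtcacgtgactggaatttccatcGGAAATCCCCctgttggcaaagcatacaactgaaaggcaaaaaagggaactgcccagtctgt
Bcl3 (chr7:19822706-19823005, minus strand): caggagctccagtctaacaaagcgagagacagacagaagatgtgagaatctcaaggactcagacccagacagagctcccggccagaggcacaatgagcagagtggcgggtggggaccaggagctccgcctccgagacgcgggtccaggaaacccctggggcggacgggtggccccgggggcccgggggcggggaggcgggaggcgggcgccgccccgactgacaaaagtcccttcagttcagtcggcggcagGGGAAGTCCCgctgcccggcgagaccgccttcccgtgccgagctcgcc
Tnfrsf12a (chr17:23677400-23677699, minus strand): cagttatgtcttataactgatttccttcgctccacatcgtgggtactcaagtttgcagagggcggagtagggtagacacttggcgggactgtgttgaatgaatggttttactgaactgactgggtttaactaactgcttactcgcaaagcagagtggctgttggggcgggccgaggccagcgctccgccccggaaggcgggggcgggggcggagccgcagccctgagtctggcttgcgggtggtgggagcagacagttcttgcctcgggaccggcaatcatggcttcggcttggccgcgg
The Nfkbia match lay at positions -29 to -20 relative to the start. In the windows shown, Nfkb2 had a stretch of overlapping matches at -39 to -29 and a match at -11 to -2. Tnfaip3 had matches at -125 to -116 and -12 to -3, and that of Bcl3 lay at 3 to 12 after the start. The Nfkb2 windows not shown also held matches. A match describes the letters and is not a measured binding site.

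The 2 subunits of the canonical pathway were measured first. Rela encodes p65, which carries the activation domain of the main dimer. Given in the order of replicates 1, 2 and 3, here and below, its radiotherapy levels were 6.36, 6.12 and 41.7 TPM, against 20.01, 20.4 and 12.1 TPM in control muscle. The first 2 radiotherapy libraries were below and the third was above every control, so the means were close, 18.1 ± 20.5 TPM in radiotherapy and 17.5 ± 4.66 TPM in control (SD, n = 3 each), while the spread was not. Nfkb1, which encodes p105 and its product p50, was at 4.74, 4.16 and 15.8 TPM in radiotherapy, against 14.3, 10.2 and 7.92 TPM in control muscle. Its radiotherapy libraries fell on both sides of the control range, as for Rela, though replicate 3 lay only just above control replicate 1.

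The non-canonical subunits followed the same libraries. Nfkb2, which encodes p100 and its product p52, was at 4.61, 2.83 and 20.8 TPM in radiotherapy, against 10.0, 9.94 and 5.63 TPM in control muscle. Relb, the partner of p52, was at 5.02, 2.95 and 20.1 TPM in radiotherapy, against 10.9, 8.17 and 4.74 TPM in control muscle. Relb is the member whose replicates 1 and 2 did not both lie below the controls, since radiotherapy replicate 1 was above control replicate 3. Within a library the 2 genes kept close to a fixed ratio: Relb over Nfkb2, a ratio of TPM, was 1.09, 1.04 and 0.969 in radiotherapy and 1.08, 0.822 and 0.842 in control libraries.

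Of the 2 inhibitors among the members, Nfkbia had the higher level in every library. It encodes IkB-alpha and closes the feedback loop of the canonical pathway. It was at 12.6, 13.2 and 80.9 TPM in radiotherapy, against 63.0, 37.1 and 43.8 TPM in control muscle. Replicates 1 and 2 averaged 12.9 TPM, so the control mean of 48.0 ± 13.5 TPM (SD, n = 3) was 3.72 times theirs, while replicate 3 was 1.69 times the control mean. The ratio of Nfkbia to Rela within a library was 1.98, 2.16 and 1.94 in radiotherapy and 3.15, 1.82 and 3.61 in control libraries, so replicate 3 did not stand apart from replicates 1 and 2 in this ratio. The groups overlapped in it.

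Tnfaip3 encodes A20, a ubiquitin-editing enzyme that shuts off signalling upstream of the IkB kinases. It was at 0.36, 0.27 and 6.24 TPM in radiotherapy, against 5.87, 0.80 and 1.95 TPM in control muscle. Radiotherapy replicate 3 was 19.8 times the mean of replicates 1 and 2, the widest such ratio among the 10 members. That mean was only 0.315 TPM, and with depth unknown the size of this ratio is uncertain. The controls also varied widely, their highest being 7.34 times their lowest, and replicate 3 was only slightly above control replicate 1.

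The atypical IkB proteins act in the nucleus, where they change which NF-kB targets are transcribed. Nfkbiz, which encodes IkB-zeta and is induced by interleukin-1 and Toll-like receptors, was at 0.52, 0.45 and 5.91 TPM in radiotherapy, against 4.75, 0.63 and 2.35 TPM in control muscle. Replicates 1 and 2 were below the lowest control by little, since control replicate 2 was itself low. Bcl3, a partner of p50 and p52 dimers, was at 2.64, 1.76 and 20.2 TPM in radiotherapy, against 9.61, 3.52 and 5.24 TPM in control muscle. Its replicate 3 level was 3.30 times the control mean, the highest such ratio of the 10 members.

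Birc3 encodes cIAP2, a ubiquitin ligase recruited to TNF receptor complexes that also promotes the turnover of NIK. It was at 1.25, 2.36 and 16.6 TPM in radiotherapy, against 11.7, 3.56 and 5.33 TPM in control muscle. Birc2, which encodes the related cIAP1, was at 2.85, 3.12 and 5.98 TPM in radiotherapy, against 6.50, 4.89 and 7.38 TPM in control muscle, with replicate 3 inside the control range. The ratio of Birc3 to Birc2 was 0.439, 0.756 and 2.78 in radiotherapy and 1.80, 0.728 and 0.722 in control libraries. It was highest in radiotherapy replicate 3, and the groups overlapped.

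Tnfrsf12a, also called Fn14, encodes the receptor for the cytokine TWEAK, and is known to be induced in muscle by denervation and injury. It was at 29.5, 10.6 and 59.6 TPM in radiotherapy, against 167, 289 and 131 TPM in control muscle. The groups did not overlap, and replicate 3 was again the highest of its group but lay below the lowest control. The means were 33.2 ± 24.7 TPM in radiotherapy and 196 ± 82.8 TPM in control muscle (SD, n = 3 each), the control mean being 5.89 times that of radiotherapy. Relative to Rela within a library, Tnfrsf12a was at 4.64, 1.73 and 1.43 in radiotherapy and 8.33, 14.2 and 10.8 in control libraries. The groups did not overlap in this ratio. Its denominator was uneven, since Rela in radiotherapy replicate 3 was 2.38 times its control mean. How many other genes differ in this way relative to Rela was not counted.

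**Figure D2:**
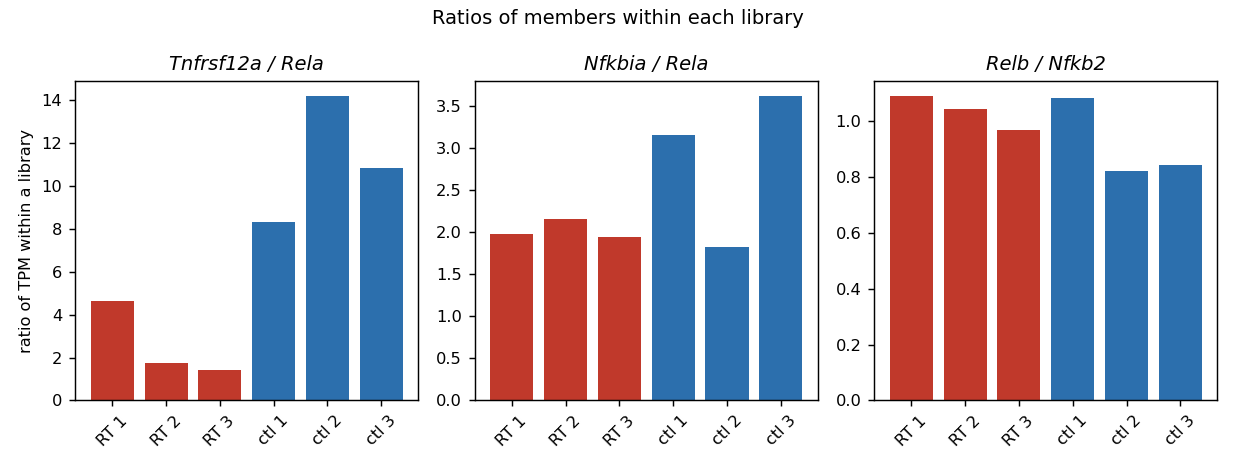
Ratios of TPM between 2 members within each library, for 3 radiotherapy (RT, red) and 3 control (ctl, blue) libraries. Tnfrsf12a over Rela is 1.43 to 4.64 in RT and 8.33 to 14.2 in control, while Nfkbia over Rela and Relb over Nfkb2 overlap between the groups.

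The ligand did not share this order. Tnfsf12, which encodes TWEAK, was at 6.16, 5.71 and 5.69 TPM in radiotherapy, against 4.49, 5.53 and 5.96 TPM in control muscle, with overlapping groups and a log2 difference of 0.12 (SE 0.23, limma adjusted p = 0.795). Receptor transcripts per ligand transcript were 4.80, 1.85 and 10.5 in radiotherapy and 37.1, 52.3 and 22.0 in control libraries. These 2 groups of ratios did not overlap.

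Differences between the groups were tested with limma on log2(TPM + 1), with a mean of at least 1 TPM required and p-values adjusted over all 11938 genes tested, and all 10 members passed that filter. Of the 10 members 0 passed at an adjusted p of 0.05, beside 0.0168% of all tested genes called lower and 0.0419% called higher. At an unadjusted p under 0.05, 1 member, Tnfrsf12a, was lower and 0 higher, beside 13.3% and 1.18% of all tested genes. Tnfrsf12a had a log2 difference of -2.74 (SE 0.62, 95% interval -4.22 to -1.27, unadjusted p = 0.00311, limma adjusted p = 0.251). Counted from the lowest log2 difference, it ranked 33 of 11938. The other 9 members lay between -0.93 (Nfkbia, SE 0.70, limma adjusted p = 0.524) and -0.10 (Relb, SE 0.63, limma adjusted p = 0.938). Their 95% intervals all spanned 0, that of Nfkbia running from -2.59 to 0.73. All 10 had a log2 difference below 0, as did 78.5% of all tested genes, and the median over the members was -0.48, beside -0.36 over all tested genes. The mean of unlogged TPM was nevertheless higher in radiotherapy for Nfkb2, Rela, Relb and Bcl3, whose replicate 3 was above every control. An exact two-sided permutation test of 1 gene could reach no p smaller than 0.1 with 3 libraries a group.

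Without radiotherapy replicate 3 the same test called 4 of 10 members lower, beside 27.6% of all tested genes, and 0 higher, beside 1.98%. These were Tnfrsf12a at a log2 difference of -3.31 (SE 0.51, limma adjusted p = 0.0141), Nfkbia at -1.78 (SE 0.26, limma adjusted p = 0.0133), Rela at -1.32 (SE 0.27, limma adjusted p = 0.0231) and Nfkb1 at -1.08 (SE 0.27, limma adjusted p = 0.0347). The other 6 lay between -1.38 (Birc3, limma adjusted p = 0.0717) and -0.81 (Relb, limma adjusted p = 0.140). The median of all tested genes was then -0.57 and that of the members -1.20, so relative to all tested genes Tnfrsf12a stood at -2.74, Nfkbia at -1.22, Rela at -0.75 and Nfkb1 at -0.51. This fit sets 2 radiotherapy libraries against 3 controls.

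**Figure D3:**
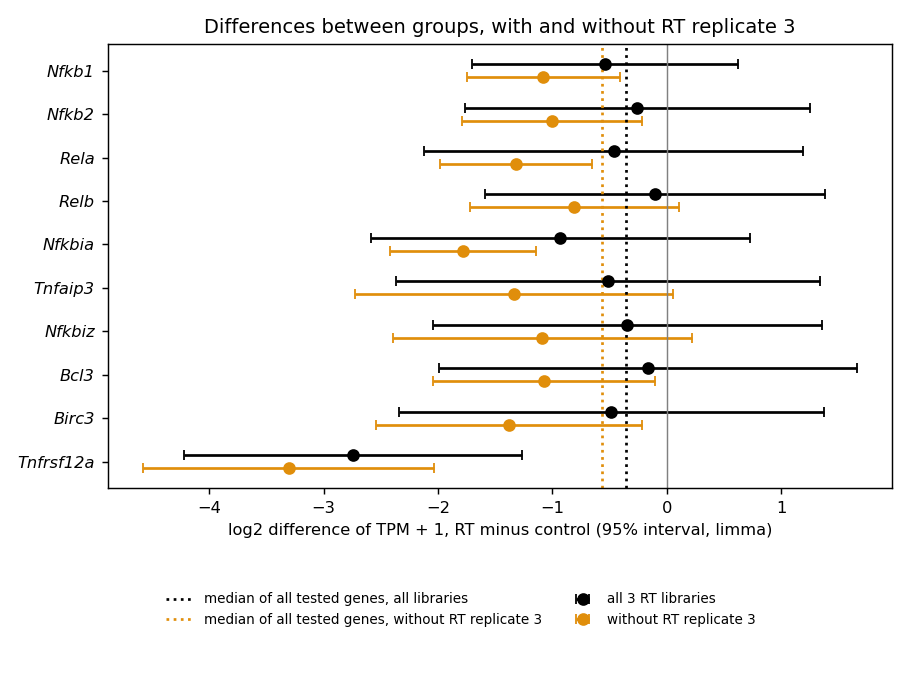
Log2 difference of TPM + 1, radiotherapy (RT) minus control, with the 95% interval from limma, for all libraries (black) and without RT replicate 3 (orange); dotted lines mark the median of all tested genes, -0.36 and -0.57. With all libraries the Tnfrsf12a interval, -4.22 to -1.27, is the only one of the 10 that stays below 0.

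The share of each library taken by its most abundant transcripts was highest in radiotherapy replicates 1 and 2, where most members were lowest. It was lowest in radiotherapy replicate 3. The 20 most abundant genes made up 50.5%, 52.1% and 30.3% of all TPM in the radiotherapy libraries, against 33.0% to 42.6% of it in controls. After scaling by median of ratios, radiotherapy replicates 1 and 2 were below every control in 5 of 10 members, Nfkb1, Rela, Nfkbia, Tnfaip3 and Tnfrsf12a, beside 24.8% of all tested genes. Radiotherapy replicate 3 stayed above every control in 9 of 10, beside 31.6%, and 4 members met both conditions, beside 8.44%. The log2 difference of Tnfrsf12a was then -2.30, with the median of all tested genes at 0.01, and all 3 radiotherapy libraries stayed below every control, as in 9.19% of all tested genes. The differences of Nfkb2, Relb and Bcl3 turned to 0.12, 0.28 and 0.18.

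Some cell type markers also set radiotherapy replicate 3 apart. The summed level of 10 leukocyte markers ran at 42.1, 73.5 and 3115 TPM in the libraries of the radiotherapy group, against 217, 112 and 253 TPM in those of the control group. Most of the 3115 TPM came from S100a8 and S100a9, calcium-binding proteins abundant in neutrophils, at 1141 and 1574 TPM. Replicate 3 was the highest of all libraries in 7 of the 8 leukocyte markers tested, beside 30% of all tested genes. The exception was the macrophage gene Adgre1, at 2.20 TPM in radiotherapy replicate 3 and 3.41 TPM in control replicate 1. Ly6g, a neutrophil surface protein, was listed at 0 in the first 2 radiotherapy libraries and at 2.23 TPM in replicate 3, against 0.06 to 0.19 TPM in control. The 6 endothelial markers summed to 54.7, 52.0 and 160 TPM in radiotherapy and 71.6 to 84.0 TPM in control libraries. Replicate 3 was above every control in only 3 of these 6, beside 31.5% of all tested genes. Pecam1 in replicate 3 lay inside the control range, and Kdr and Tie1 lay slightly below it. Fibroblast and tendon markers summed to 143, 151 and 92.9 TPM in radiotherapy and 149, 108 and 169 TPM in control libraries, most of it from Dcn. Of the 6 tested, 2 were above every control in all 3 radiotherapy libraries, beside 1.73% of all tested genes. Their median log2 difference was 0.72, and without radiotherapy replicate 3 limma called 3 of 6 higher, beside 1.98%. The type I collagen gene Col1a1, named after its values were seen, had 10.7, 14.0 and 3.00 TPM in radiotherapy, against 2.05, 1.35 and 2.03 TPM in control muscle. Dcn went the other way, with overlapping groups. It was at 88.7, 102 and 76.3 TPM in radiotherapy, against 129, 97.4 and 155 TPM in control muscle. Smooth muscle and Schwann cell markers summed to 225, 226 and 90.7 TPM in radiotherapy and 151, 90.8 and 131 TPM in control libraries, above every control in replicates 1 and 2 and lowest of all in replicate 3. Adipocyte markers summed to 10.1 to 23.9 TPM in radiotherapy and 3.33 to 40.4 TPM in control. Satellite cell markers summed to 0.37 to 0.81 TPM in radiotherapy and 0.53 to 0.74 TPM in control, with Calcr, 1 of the 4, listed at 0 in every control. In bulk tissue more cells of a type and more RNA per cell cannot be told apart, and the part of these cells in the members' levels was not tested.

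Among the controls, replicate 1 was the highest in 8 of 10 members, beside 47.3% of all tested genes; Rela and Tnfrsf12a were highest in control replicate 2. Across the 6 libraries the 9 members other than Tnfrsf12a had pairwise Pearson correlations of log2 level from 0.758 to 0.989, over 36 pairs. Tnfrsf12a correlated with them at 0.366 to 0.696. These are descriptions over 6 libraries that share their scaling and their split. Among tested genes with a name, predicted gene models left out, those most like Nfkbia across the 6 libraries were Srp72, Rap2c, Mef2d and Acbd3, with r from 0.997 to 0.999. Those most like Tnfrsf12a were Zfp213, Abhd10, Cbx1 and Poc1b, with r from 0.994 to 0.997. Being the highest of many genes over only 6 libraries, these r values are high by selection. For example Cbx1 was at 11.6, 7.34 and 18.2 TPM in radiotherapy, against 24.6, 31.8 and 23.3 TPM in control muscle.

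Upstream of the members, the IkB kinase complex was read through Chuk, Ikbkb and Ikbkg. The regulatory subunit Ikbkg (NEMO) was at 1.87, 1.53 and 4.77 TPM in radiotherapy, against 5.42, 5.15 and 5.74 TPM in control muscle. Its groups did not overlap, with a log2 difference of -0.89 (SE 0.35, limma adjusted p = 0.334). All 3 radiotherapy libraries were below every control in 19.3% of all tested genes. The catalytic subunits overlapped between groups, Chuk at 4.18, 2 and 5.80 TPM in radiotherapy and 3.98 to 7.40 TPM in control, and Ikbkb at 3.51, 4.05 and 8.71 TPM in radiotherapy and 4.01 to 8.74 TPM in control. Map3k14, which encodes NIK, was at 1.31, 0.80 and 4.72 TPM in radiotherapy and 4.08 to 5.19 TPM in control muscle. The adaptors Traf2 and Traf3 were at 4.34 to 12.3 and 0.81 to 2.39 TPM in radiotherapy, and at 4.90 to 9.97 and 1.02 to 2.16 TPM in control muscle. Rel, the remaining family member, was at 0.13 to 0.42 TPM in radiotherapy and 0.37 to 0.86 TPM in control muscle, under the filter.

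Of 40 signalling components listed, 29 were tested and 0 passed with limma over all genes. At an unadjusted p under 0.05, 2 were lower, beside 13.3% of all tested genes, and 0 higher, beside 1.18%. Their median log2 difference was -0.25, beside -0.36 over all tested genes. The smallest p belonged to Irak1, a kinase of the interleukin-1 and Toll-like receptor route, at 7.24, 6.58 and 13.7 TPM in radiotherapy, against 28.6, 20.9 and 17.98 TPM in control muscle. Its groups did not overlap (log2 difference -1.25, SE 0.35, limma adjusted p = 0.283). Irak1 and Ikbkg were the 2 of 29 with all radiotherapy libraries below every control, beside 19.3% of all tested genes. Map3k7 (TAK1) and Tab2, its partner, were at 3.14 to 4.81 and 13.2 to 19.4 TPM in radiotherapy, and at 4.55 to 7.95 and 19.4 to 34.9 TPM in control muscle. Traf6, a ubiquitin ligase of the same route, was at 0.65 to 1.68 TPM in radiotherapy and 1.39 to 2.17 TPM in control. Cd40, a TNF receptor family member, was at 0.05 to 1.17 TPM in radiotherapy and 0.53 to 3.05 TPM in control. Without radiotherapy replicate 3, 5 of 29 passed as lower, Irak1, Ikbkg, Map3k14, Birc2 and Myd88, beside 27.6% of all tested genes; Myd88, the adaptor of Toll-like receptors, was named after its values were seen.

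Of 16 other inhibitors listed, 15 were tested and 0 passed with limma over all genes. At an unadjusted p under 0.05, 1, Cyld, was lower, beside 13.3% of all tested genes, and 0 higher, beside 1.18%. Their median log2 difference was -0.36, as over all tested genes. In 8 of the 15, radiotherapy replicates 1 and 2 lay below and replicate 3 above every control, beside 19.3% of all tested genes. Cyld, a deubiquitinase, was at 1.31, 0.89 and 1.5 TPM in radiotherapy, against 2.74, 1.87 and 2.83 TPM in control muscle. Nfkbib, which encodes IkB-beta, was at 26.7, 22.2 and 116 TPM in radiotherapy, against 82.3, 124 and 48.1 TPM in control muscle, so unlike Nfkbia its replicate 3 lay inside the control range. Tax1bp1, an adaptor of A20, was at 15.2, 17.2 and 68.1 TPM in radiotherapy, against 42.5, 52.0 and 39.5 TPM in control muscle. Tank, a TRAF-binding adaptor, was at 2.98 to 10.0 TPM in radiotherapy and 8.08 to 10.1 TPM in control. Itch, a ubiquitin ligase that works with A20, was at 1.01 to 2.19 TPM in radiotherapy and 1.96 to 3.69 TPM in control. Commd1, which promotes turnover of RelA, was at 44.6 to 75.4 TPM in radiotherapy and 38.5 to 55.9 TPM in control. Without radiotherapy replicate 3, 8 of 15 passed as lower, beside 27.6% of all tested genes. One of these 8, named after its values were seen, is Traf3ip2, an adaptor of the interleukin-17 receptor that activates rather than inhibits the pathway, at 3.50, 3.86 and 256 TPM in radiotherapy, against 7.80, 11.3 and 6.49 TPM in control muscle.

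Genes known to be induced by NF-kB were read from a list of 40. Of these, 34 were tested and 0 passed with limma over all genes; 1, Irf1, was lower at an unadjusted p under 0.05, beside 13.3% of all tested genes, and 0 higher, beside 1.18%. Their median log2 difference was -0.59, beside -0.36 over all tested genes. Icam1, an adhesion molecule for leukocytes, was at 2.73, 4.01 and 23.2 TPM in radiotherapy, against 54.5, 12.0 and 21.2 TPM in control muscle. Irf1, an interferon-linked factor, was at 3.38 to 4.89 TPM in radiotherapy, against 20.9, 6.44 and 6.29 TPM in control muscle. Vcam1, an adhesion molecule, was at 0.51 to 0.88 TPM in radiotherapy, against 7.85, 1.53 and 1.57 TPM in control muscle. For both, replicate 3 lay with replicates 1 and 2 below every control, as in 2 of the 34 targets, beside 19.3% of all tested genes. Csf1, a macrophage growth factor, was at 2.95 to 6.50 TPM in radiotherapy, against 23.1, 5.55 and 6.42 TPM in control muscle. Cxcl10, a chemokine, was at 0.26 to 0.71 TPM in radiotherapy, against 55.9, 10.2 and 0.55 TPM in control muscle, with overlapping groups. Control replicate 1 was the highest control in 27 of the 34 tested targets, beside 47.3% of all tested genes. For these genes the control level thus leans on 1 library.

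Cxcl1 and Il6 are 2 further targets, named after their values were seen. Cxcl1, a neutrophil chemokine, was at 0.15, 0.28 and 105 TPM in radiotherapy, against 34.6, 4.09 and 20.5 TPM in control muscle. Il6, interleukin-6, was at 0.05, 0.04 and 21.6 TPM in radiotherapy, against 2.70, 0.22 and 1.96 TPM in control muscle. Ccl7, another chemokine also named after its values were seen, was at 0.06, 0.07 and 16.4 TPM in radiotherapy, against 40.6, 5.09 and 4.44 TPM in control muscle, with replicate 3 inside the control range. Cxcl1 and Il6 were below every control in radiotherapy replicates 1 and 2 and above every control in replicate 3, as 15 of the 34 tested targets were, beside 19.3% of all tested genes. Without radiotherapy replicate 3, limma called 13 of 34 targets lower, beside 27.6% of all tested genes, and 0 higher.

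**Figure D4:**
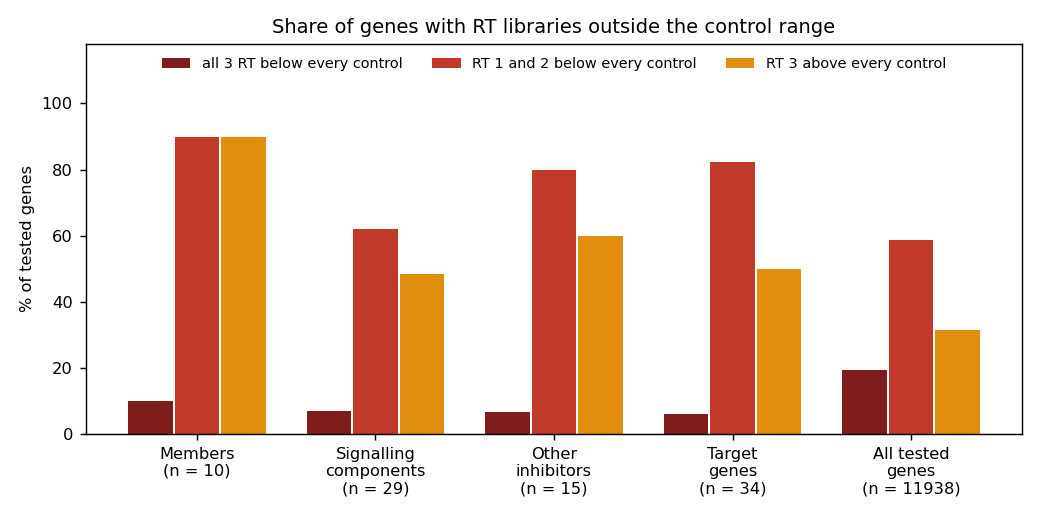
Percent of tested genes with all 3 radiotherapy (RT) libraries below every control, with RT replicates 1 and 2 below every control, and with RT replicate 3 above every control, for the members, 3 lists of pathway genes and all 11938 tested genes. The members stand at 9 of 10 for RT replicates 1 and 2 below and for RT replicate 3 above, beside 58.8% and 31.5% of all tested genes.

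**Figure D5:**
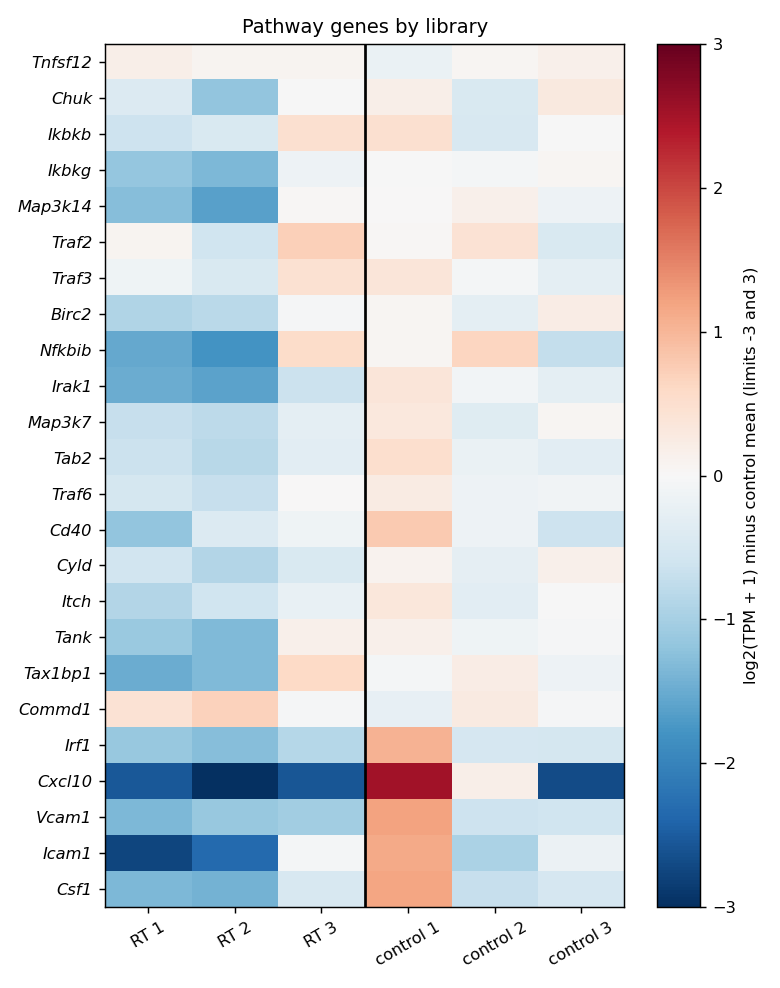
Log2(TPM + 1) minus the control mean in each radiotherapy (RT) and control library for pathway genes outside the members, on a colour scale that stops at -3 and 3. The genes are a fixed panel and those of smallest limma p in each pathway list, so part of the colour follows from their selection. RT replicates 1 and 2 are blue in most of the genes shown, while Tnfsf12 stays near 0 in all 6 libraries. Over all tested genes, RT replicates 1 and 2 lay below every control in 58.8%.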

How the data were processed

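The authors deposited one table of TPM per gene and library. Per the submitters' processing notes, HISAT2, StringTie and RSEM were used with the mouse build mm9; versions, order and roles are not given in the sources used here. No read counts were used, so depth is unknown, and no detection limit or count test is given. Libraries were assigned by their labels, 3 per group. The members and the gene lists were chosen with earlier results of these data known. Features averaging 1 TPM or more over the 6 libraries were tested two-sided on log2(TPM + 1) with limma 3.58.1 in R 4.3.3 (empirical Bayes with a trend, no covariates), with Benjamini-Hochberg adjustment over 11938 features and a threshold of 0.05. The test was checked on simulated data. TPM sums to a fixed total, so a change in abundant transcripts moves all others; median-of-ratios scaling and quantile normalisation were alternatives, beside pseudocounts of 0.5 and 0.1, a filter at 5 TPM, none, no trend, a replicate block and leaving out each library. Named genes were the members, a fixed panel of 10 pathway genes, the 5 genes of smallest p in each of 3 lists, and the 4 genes most correlated with Nfkbia and with Tnfrsf12a. For the correlated genes, unnamed and predicted genes were left out. Other pathway genes are marked where named. Single genes of the cell type marker lists were named with their values known. Promoters came from RefSeq on GRCm38.p6 and no table coordinates were used. Figures were drawn with matplotlib 3.10.9.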

Additional observations from a re-analysis of the deposited data

How the results depend on the processing

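Under the 8 alternatives that keep all libraries, 0 members and 0 genes of the 3 pathway lists passed with limma, and Tnfrsf12a stayed between -2.80 and -2.30 on the log2 scale (limma adjusted p from 0.227 to 0.600). Its count of 1 member at an unadjusted p under 0.05 held in each of them. At a mean of at least 5 TPM, Tnfaip3 and Nfkbiz were not tested. Over all genes 7 passed as reported. That count was 0 without a filter, and 4 with each of the replicate block, quantile normalisation and median-of-ratios scaling; the cause was not tested. The labels do not say whether the replicate numbers pair the libraries. Deviations of same-numbered libraries correlated at -0.05, -0.11 and -0.20, so no pairing was assumed. With 3 libraries a group these values cannot exclude a pairing. With the block Tnfrsf12a had a limma adjusted p of 0.600 and 0 members passed.

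Leaving out single libraries gave 1 to 3534 calls over all genes, 0 to 4 members, 0 to 5 signalling components, 0 to 8 other inhibitors and 0 to 13 targets, each upper value being without radiotherapy replicate 3. Without single libraries the log2 difference ran from -3.31 to -2.11 for Tnfrsf12a, -1.78 to -0.49 for Nfkbia, -1.32 to -0.03 for Rela and -1.08 to -0.23 for Nfkb1, which kept their direction. It ran from -1.38 to 0.11 for Birc3, -1.34 to 0.0105 for Tnfaip3, -1.09 to 0.0851 for Nfkbiz, -1.08 to 0.39 for Bcl3, -1.001 to 0.25 for Nfkb2 and -0.81 to 0.40 for Relb, and from -0.54 to 0.0458 for Ikbkb, -0.26 to 0.40 for Traf2 and -0.29 to 0.16 for Traf3, which did not. With median-of-ratios scaling and with quantile normalisation the direction turned for Nfkb2 (0.12 and 0.11), Relb (0.28 and 0.25), Bcl3 (0.18 and 0.11), Ikbkb (0.18 and 0.15) and Traf3 (0.21 and 0.22). Both scalings move the median of all genes, from -0.36 to 0.01 and -0.02. Without counts, no depth limit can be given for the members under 1 TPM in some libraries.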
